A study of Mus musculus with 8 samples.

Results

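The collagen genes were examined in liver RNA of wild-type (WT) mice and of mice with a hepatic deletion of HRD1, an E3 ubiquitin ligase of the endoplasmic reticulum. They were taken as every gene whose symbol consists of Col, a number, the letter a and a second number, which gave 43 of the 23337 genes in the count tables. Of these, 31 had 10 or more counts in at least 2 libraries and were tested, and 12 did not pass this filter on low counts. The 12 untested genes had between 1 and 77 counts in all 8 libraries together and never exceeded 0.931 CPM (counts scaled to a common library size) in a library. All mice were C57BL/6 and 12 weeks old. The deleted mice, HRD1Alb, carry HRD1 f/f alleles and an Alb-Cre transgene, whose albumin promoter drives Cre in hepatocytes, and the labels give their genotype as Hrd1-/- and that of the controls as WT. The breeding behind the control group is given by the study as HRD1 f/f without the Cre transgene. Livers were taken after an overnight fast (fasted) or after the same fast and 4 h of refeeding (refed), with 2 libraries in each of the 4 groups. Nothing in the labels says whether a library holds RNA of 1 mouse or of several, so the p-values measure only the spread between these libraries.

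Collagens are secreted proteins built of 3 chains wound into a triple helix, in which glycine recurs at regular steps along each chain. Fibrillar collagens assemble into the tensile fibres of scar and portal matrix, basement-membrane collagens form sheets under endothelium and epithelium, and the remaining types decorate fibrils, link matrix layers or sit in the plasma membrane. In liver the fibrillar types are made mostly by hepatic stellate cells and portal fibroblasts, whereas collagen XVIII is known as a product of hepatocytes. The chains are hydroxylated and folded in the endoplasmic reticulum before secretion.

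The repeat that defines the family is visible in the genes themselves, and 1 exon of each chain of collagens I and III, the main fibrillar collagens of liver scar, is shown for that reason. The exons lie in the coding sequence on the plus strand of GRCm38 (GENCODE M21), at chr11:94939904-94939957 for Col1a1 exon 8, at chr6:4515481-4515534 for Col1a2 exon 8 and at chr1:45325360-45325413 for Col3a1 exon 6. Each is 54 nt long and holds 6 triplet repeats, and the capitals mark the glycine codon, GGN, that opens each repeat of 9 nt.
Col1a1 exon 8: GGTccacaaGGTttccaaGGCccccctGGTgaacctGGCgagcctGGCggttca
Col1a2 exon 8: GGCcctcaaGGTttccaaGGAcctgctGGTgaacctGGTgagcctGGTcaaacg
Col3a1 exon 6: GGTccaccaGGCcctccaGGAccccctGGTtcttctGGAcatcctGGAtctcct

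Across the 11 fibrillar genes, 83.9% of 627 inner coding exons had a length that is a multiple of 9 nt, and 305 of them were exactly 54 nt. The 6 basement-membrane genes had 47.2% of 284 exons and only 12 of 54 nt. In other protein-coding genes 13.7% of exons had such a length. The longest uninterrupted run of repeats was 216 to 344 triplets in fibrillar genes and 39 to 66 in basement-membrane genes, whose helices are broken by short interruptions. Col27a1, lower in HRD1Alb livers where Col1a1, Col1a2 and Col3a1 were higher, had a run of 217 triplets, among the shortest of its class, with 88.1% of its exons at a multiple of 9 nt.

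**Figure D1:**
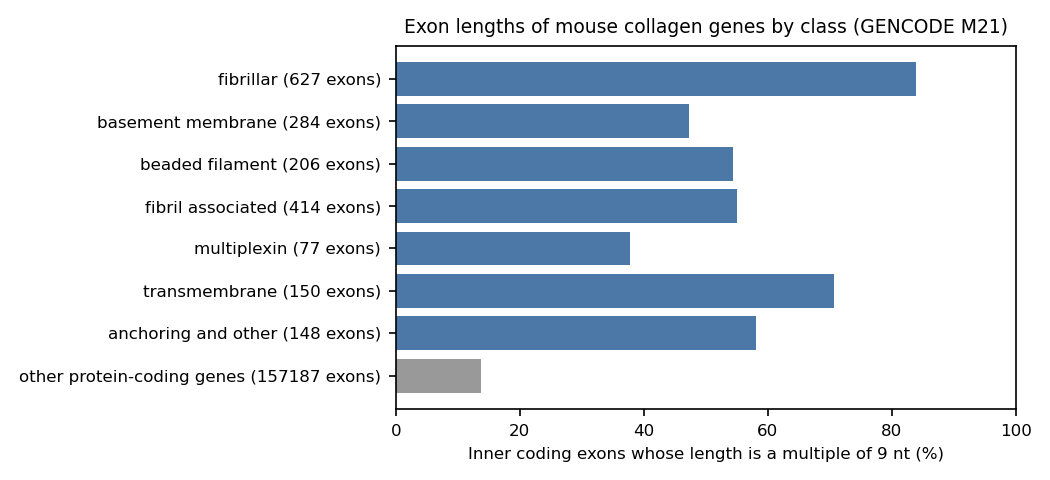
Share of inner coding exons, in percent, whose length is a multiple of 9 nt in each collagen class and in other protein-coding genes, with the number of exons in brackets. The bar of the fibrillar class reaches 83.9% and that of other protein-coding genes 13.7%, and the 3 network-forming genes had no inner coding exon and are not drawn.

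Total counts were between 40210576 and 49117080 per library, and 3 counts corresponded to 0.0611 to 0.0746 CPM. Levels are given as CPM after TMM scaling, and per kilobase of exon where different genes are compared. Syvn1, which encodes HRD1, had 111 and 99.8 CPM in fasted WT and 32.6 and 31.5 CPM in fasted HRD1Alb liver, but 637 and 305 CPM in refed WT and 453 and 132 CPM in refed HRD1Alb liver. The library labelled HRD1Alb refed replicate 1 thus lay within the refed WT range. Which exons were removed is not given in the sources used here, and counts cover the whole gene. The library labelled HRD1Alb refed replicate 2 stood apart in another way, since its ratio to replicate 1 fell with gene length (Spearman rho -0.61 across 14188 genes, against -0.13 to 0.03 in the other 3 groups) and 9.45% of its counts lay on genes over 5 kb, against 13.9% to 16.1% elsewhere. Of the 31 tested collagen genes, 28 were lower in that library than in replicate 1. The median log2 ratio of replicate 2 to replicate 1 was -0.78 over these members and -0.08 over all genes. The collagen genes had exon lengths of 2924 to 12154 nt. WT fasted replicate 2 had a summed level of 29.7 CPM over 5 mesothelial markers, against 2.87 to 9.24 CPM in the other 7 libraries. The counts of called collagen genes and the values of several named ones are therefore given with and without these libraries. The pathway counts are described that way. The cell-type markers are given with all 8 libraries only.

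The 43 genes together made up 875 to 1566 CPM, and 1 gene supplied most of it. Col18a1, the precursor of endostatin, reached 138 CPM per kb over the 8 libraries and 56.1% to 83.8% of the summed collagen CPM. The next gene per kb, Col4a1, was 16.6 times lower at 8.35 CPM per kb, followed by its partner Col4a2 at 7.44 and by Col14a1 at 5.90 CPM per kb. Col3a1 (4.94), Col5a3 (4.78) and Col1a2 (4.72 CPM per kb) were close to each other and overlapped between libraries. Col27a1 had 2.96, Col6a1 2.60 and Col1a1 2.45 CPM per kb. Of the tested genes, 9 averaged below 1 CPM and 24 had 10 or more counts in every library.

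In refed liver, the classical fibrillar collagens I and III and the basement-membrane chain Col4a2 were higher in HRD1Alb than in WT livers, whereas Col18a1 and the fibrillar Col27a1 were lower. Of the 31 genes tested, 5 rose and 2 fell in HRD1Alb livers, and 18 reached an unadjusted p below 0.05 where 33.3% of all genes did, by edgeR's quasi-likelihood test with Benjamini-Hochberg adjustment over 14379 genes, where 11.9% of all genes were called, 7.06% higher and 4.84% lower. Both HRD1Alb libraries lay above both WT libraries for 18 members, which 30.7% of all genes did, and below for 5, which 30.1% did. The median log2 fold change was 0.94 over the 31 collagen genes and 0.05 over all genes tested. In bulk liver, fewer cells of a type and less RNA per cell cannot be told apart.

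Col1a1, the alpha 1 chain of collagen I, had 2.96 and 4.60 CPM in the refed WT libraries and 34.0 and 15.3 CPM in those labelled HRD1Alb. Its fasted levels were 5.63 and 16.7 CPM in WT and 17.7 and 19.5 CPM in HRD1Alb. The refed groups were therefore separated by a wide gap, while 1 fasted WT library came close to its HRD1Alb counterparts. In refed liver Col1a1 was 6.52-fold higher (log2 fold change 2.71 ± 0.58 SE, adjusted p = 0.0318). Its partner chain Col1a2 was 3.72-fold higher (1.90 ± 0.46, adjusted p = 0.0415), at 44.5 and 26.1 CPM against 7.39 and 11.6 CPM. Col3a1, the homotrimeric collagen III that is laid down with collagen I, was 4.45-fold higher (2.15 ± 0.43, adjusted p = 0.0282), at 60.3 and 32.0 CPM against 9.07 and 11.7 CPM. For all 3 genes the lower HRD1Alb library was replicate 2, yet still above both WT libraries. Without the library labelled HRD1Alb refed replicate 1 the log2 fold changes were 2.03, 1.47 and 1.63 for Col1a1, Col1a2 and Col3a1. Without replicate 2 they were 3.17, 2.23 and 2.54. All 3 calls were lost on leaving out any 1 of the refed WT or fasted HRD1Alb libraries. They were also lost with only the refed libraries in the fit.

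Fibrillar members outside collagens I and III did not follow 1 direction. Col5a1, Col5a2, Col11a2 and Col24a1 had positive log2 fold changes of 0.74 to 1.46 in refed liver and none passed the test. Col5a3, the third chain of collagen V, had 36.8 and 44.0 CPM in refed WT and 22.6 and 19.3 CPM in refed HRD1Alb liver (-0.95 ± 0.30, adjusted p = 0.0788). The 9 tested fibrillar genes thus comprised 3 that rose, 1 that fell and 5 that did not pass the test.

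Col27a1 showed the clearest difference of the family. It encodes a fibrillar chain with a shorter helix, known chiefly from cartilage. Refed WT libraries held 50.3 and 51.0 CPM and refed HRD1Alb libraries 9.34 and 6.78 CPM, and in fasted liver the values were 24.4 and 18.4 CPM against 9.15 and 10.6 CPM. All 4 HRD1Alb libraries lay below all 4 WT libraries, and the refed WT pair stood well above every other library. The refed level was 6.28-fold lower in HRD1Alb (-2.65 ± 0.23, adjusted p = 0.00537). Without replicate 1 of the refed HRD1Alb group the log2 fold change of Col27a1 was -2.89, and without replicate 2 it was -2.44. Its refed call was lost on leaving out replicate 1 or replicate 2 of refed WT, and with only the refed libraries in the fit.

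**Figure D2:**
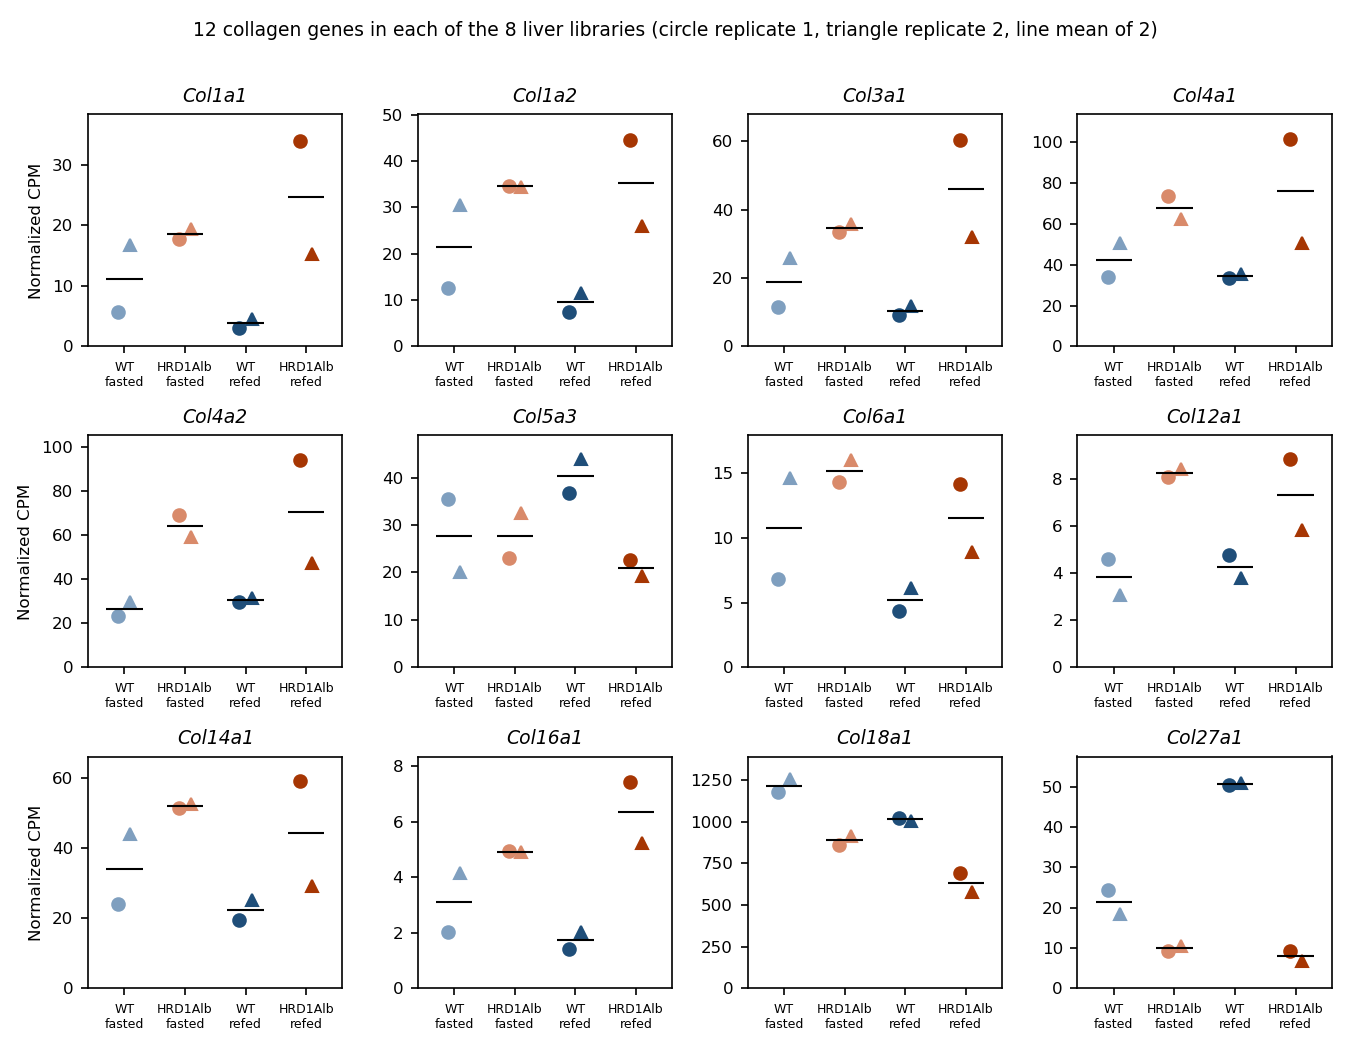
Normalized CPM (linear axis from 0) of 12 collagen genes in each library, by group, with circles for replicate 1, triangles for replicate 2 and a line at the mean of 2. Col1a1, Col1a2 and Col3a1 have their lowest mean in refed WT liver, Col18a1 its highest in fasted WT liver, and Col27a1 at 50.3 and 51.0 CPM its highest in refed WT liver.

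Among basement-membrane genes, the ubiquitous pair Col4a1 and Col4a2 was the only one above 5 CPM on average. Col4a2 had 29.7 and 31.7 CPM in refed WT and 94.1 and 47.3 CPM in refed HRD1Alb liver, and it was 2.30-fold higher (1.20 ± 0.31, adjusted p = 0.0497). Col4a1 had 33.6 and 35.3 against 102 and 50.6 CPM (1.14 ± 0.34, adjusted p = 0.0680) and did not pass the test in this comparison. Neither gene overlapped between the groups, although for Col4a1 the library labelled HRD1Alb refed replicate 2 stood barely above WT fasted replicate 2, at 50.4 CPM. Without replicate 1 the log2 fold change of Col4a2 was 0.63 (adjusted p = 0.0141) and without replicate 2 it was 1.62 (adjusted p = 0.00187). The call of Col4a2 was lost without any 1 of the other 6 libraries (1.16 to 1.25, adjusted p = 0.0746 to 0.241), with limma-trend (adjusted p = 0.0578), with the replicate block (adjusted p = 0.0643) and with only the refed libraries in the fit (adjusted p = 0.180). The chains Col4a3 to Col4a6, which build the specialised networks of kidney and other organs, averaged between 0.170 and 4.58 CPM and none of the 4 passed the test.

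The Col4a1 and Col4a2 genes lie head to head on chromosome 8, with starts 21 nt apart in GRCm38, on opposite strands, and their first exons overlap by 22 nt, so that reads there cannot be assigned without strand. Because they share this start region, the bases around the CCAAT letters in their promoter windows (RefSeq, GRCm38.p6) are shown with every other match in the windows of the genes named in full, whichever way they moved. Capitals mark CCAAT or its reverse complement ATTGG. The stretches lie at chr8:11312957-11312981 (minus strand, Col4a1), chr8:11312763-11312787 (plus, Col4a2), chr6:4505499-4505523 and chr6:4505608-4505632 (plus, Col1a2), chr4:130047717-130047741 (plus, Col16a1), chr9:20815175-20815199 (minus, Col5a3) and chr10:77166726-77166750 (minus, Col18a1). The capitals in them start 145, 32, 109, 0, 113, 122 and 210 bases before the listed start. The windows of Col3a1, Col6a1 and Col27a1 and 1 of the 2 windows of Col18a1 held neither form, and those of Col1a1, Col12a1 and Col14a1 were not analysed here.
Col4a1: cttgcccgggATTGGcgagccaagg
Col4a2: gaggagctccCCAATttgttggcgc
Col1a2: aagaatggaaCCAATttaagaagcc
Col1a2, at the start: tagccctcccATTGGtggagacgtt
Col16a1: gcggtgcaggCCAATggccagtgcc
Col5a3: tctcagccagCCAATcagcgcgtgg
Col18a1: cgttggagacATTGGagagaggacg

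A promoter window was listed for 35 of the 43 genes, in 38 windows. CCAAT on either strand stood in 34.2% of the collagen windows and 37.4% of all 32851 windows, TATAAA in 13.2% and 13.6%, and GGGCGG in 60.5% and 35.7%. The match of letters is a description of these windows and not evidence of a bound factor.

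Among the fibril-associated and beaded-filament genes 1 rose in refed liver. Col16a1, a fibril-associated collagen that links matrix to fibrils, had 1.43 and 2.02 CPM in refed WT and 7.43 and 5.24 CPM in refed HRD1Alb liver. This was a 3.67-fold higher level (1.88 ± 0.39, adjusted p = 0.0297). With each library left out in turn its log2 fold change was 1.61 to 2.14, and its call was lost in some of these fits. The call was also lost with only the refed libraries in the fit. Col14a1, which coats collagen I fibrils, had 19.5 and 25.3 against 59.1 and 29.1 CPM (0.98 ± 0.39, adjusted p = 0.130). Col12a1, its close relative, had 4.77 and 3.78 against 8.85 and 5.84 CPM (0.78 ± 0.30, adjusted p = 0.117). For all 3 genes the refed groups did not overlap. Col6a1, the most abundant of the beaded-filament chains, had 4.32 and 6.12 against 14.2 and 8.88 CPM (1.14 ± 0.40, adjusted p = 0.0973). All 3 tested collagen VI chains were higher in both refed HRD1Alb libraries, and none passed the test. None of the 3 transmembrane, 2 network-forming or the single tested anchoring collagen passed the test in any genotype comparison.

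Col18a1, the multiplexin of basement membranes, had lower levels in HRD1Alb livers in both states. The difference passed the test in refed but not in fasted liver. It had 1176 and 1254 CPM in fasted WT, 861 and 917 CPM in fasted HRD1Alb, 1025 and 1005 CPM in refed WT and 691 and 578 CPM in refed HRD1Alb liver. Every HRD1Alb library lay below every WT library. The refed level was 1.60-fold lower (-0.68 ± 0.16, adjusted p = 0.0425). With the length correction of each library the refed difference of Col18a1 was -0.34 (adjusted p = 0.161), so the call did not hold there. The call of Col18a1 was also lost without any 1 of the 6 libraries outside the refed HRD1Alb group, with adjusted p-values of 0.0791 to 0.213 and log2 fold changes of -0.66 to -0.69. Col15a1, the other multiplexin, had 14.2 and 16.7 against 10.8 and 10.1 CPM in refed liver (-0.56, adjusted p = 0.136).

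The number of calls in refed liver moved with single libraries, over the collagen genes and over all genes. It was 17 without the library labelled HRD1Alb refed replicate 2, where 24.2% of all genes were called, and 9 without replicate 1, where 53.8% were. It was 0 without WT refed replicate 1 or 2, where 0.00697% and 0.0139% of all genes were called. Without HRD1Alb fasted replicate 1 or 2 it was 1, Col27a1, beside 2.84% and 2.95% of all genes. Without WT fasted replicate 1 or 2 it was 5, with Col4a2 and Col18a1 lost, beside 5.47% and 5.35% of all genes. With only the 4 refed libraries in the fit no gene of any kind was called. Leaving out WT fasted replicate 2 and HRD1Alb refed replicate 2 together, an alternative added after seeing the data, gave 20 calls, among them all 7 reported ones, and 30.99% of all genes. With the length correction 14 collagen genes were called, 6 of the 7 reported ones among them, and 20.03% of all genes.

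In fasted liver no collagen gene passed the test in HRD1Alb against WT, where 1.34% of all genes did, 0.904% higher and 0.431% lower. An unadjusted p below 0.05 was reached by 6 of the 31 members and by 18.4% of all genes, and DESeq2 called 4 members (Col4a2, Col11a2, Col12a1 and Col27a1) and limma-trend 0. The median log2 fold change was 0.60 over the members and -0.02 over all genes. Both HRD1Alb libraries were above both WT libraries for 16 members (30.7% of all genes) and below for 5 (34.2%). Col27a1 came closest to the threshold, 2.17-fold lower (-1.12 ± 0.22, adjusted p = 0.0607). Col4a2 had 23.4 and 29.7 CPM in WT and 69.1 and 59.2 CPM in HRD1Alb liver (1.27 ± 0.31, adjusted p = 0.0986), and the 4 libraries were far apart by genotype. Col12a1 had 4.61 and 3.07 against 8.09 and 8.44 CPM (1.11 ± 0.30, adjusted p = 0.116).

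The collagen I and III genes were split between the 2 fasted WT libraries. Col3a1 had 11.6 CPM in replicate 1 and 25.9 CPM in replicate 2, the library with the high mesothelial markers, against 33.4 and 35.9 CPM in fasted HRD1Alb liver (0.88 ± 0.42, adjusted p = 0.318). Without WT fasted replicate 2 the fasted log2 fold change was 1.75 for Col1a1 and 1.61 for Col3a1, with adjusted p-values of 0.289 and 0.238. Without both that library and HRD1Alb refed replicate 2, 14 collagen genes and 16.8% of all genes were called in fasted liver. Without HRD1Alb refed replicate 1 or 2 it was 6 of the 31, beside 22.1% and 21.9% of all genes, a share near the background. Col4a2, Col12a1 and Col27a1 were called with the length correction (6.31% of all genes) and with only the fasted libraries in the fit (14.6%).

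**Figure D3:**
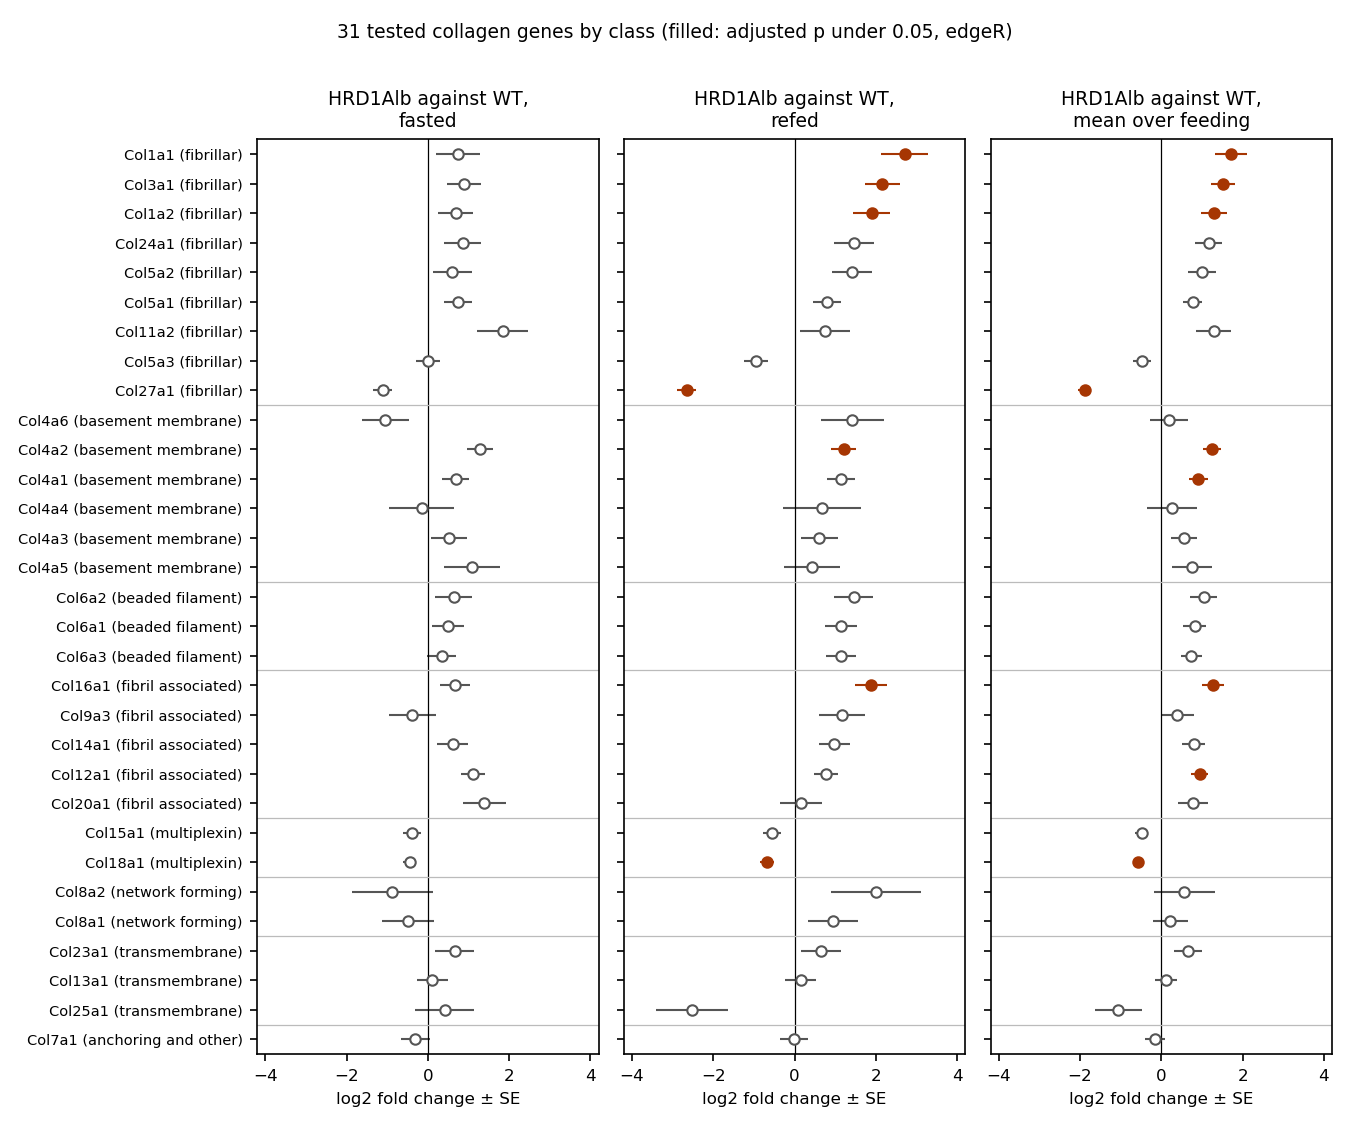
Log2 fold change of HRD1Alb against WT (bars, SE) for the 31 tested collagen genes, ordered by class and by the refed value, in fasted liver, in refed liver and as the mean of both. Filled points have an adjusted p below 0.05 by edgeR, namely none in fasted liver, 7 in refed liver and 9 in the mean.

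Averaged over both feeding states, 7 collagen genes rose (11.3% of all genes did) and 2 fell (7.76%), against 19% of all genes in either direction. The 7 were Col1a1 (1.72 ± 0.40), Col1a2 (1.29 ± 0.32), Col3a1 (1.52 ± 0.30), Col4a1 (0.91 ± 0.24), Col4a2 (1.24 ± 0.22), Col12a1 (0.94 ± 0.21) and Col16a1 (1.27 ± 0.27), with adjusted p-values from 0.0123 to 0.0368. Col18a1 (-0.56 ± 0.12, adjusted p = 0.0186) and Col27a1 (-1.88 ± 0.16, adjusted p = 0.00167) fell. All 4 HRD1Alb libraries lay above all 4 WT libraries for 7 members (11.8% of all genes), namely Col3a1, Col4a1, Col4a2, Col12a1, Col16a1 and the weakly expressed Col23a1 and Col24a1. They lay below for Col18a1 and Col27a1 (9.71%). The Col1a1 and Col1a2 levels overlapped, since WT fasted replicate 2 was above HRD1Alb refed replicate 2 in both. The median log2 fold change was 0.76 over the members and 0.01 over all genes.

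Col27a1 remained called in this comparison in every alternative run, with adjusted p-values of 8.61e-05 to 0.0172 when each library was left out in turn. The count was 18 without HRD1Alb refed replicate 2 (38.1% of all genes called) and 11 without replicate 1 (55.0%). It was 8 without WT fasted replicate 2 (9.001%) and 3 without replicate 1 (6.93%). It was 1 without WT refed replicate 1 (4.79%) or 2 (4.59%), 1 without HRD1Alb fasted replicate 1 (3.97%) and 2 without replicate 2 (6.51%). Without WT fasted replicate 2 and HRD1Alb refed replicate 2 together it was 20, all 9 reported genes included, beside 40.5% of all genes. The sign of none of the 9 values changed in any alternative.

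Of 6 ratios between chains, that of Col4a1 to Col4a2 alone did not overlap between the genotypes. Per kb, Col4a1 stood at 1.42 and 1.66 times Col4a2 in fasted WT and at 1.11 and 1.09 times in refed WT liver. In the 4 HRD1Alb libraries this ratio was 1.03 to 1.05, below each WT library. Col1a1 was 0.36 to 0.49 times Col1a2 in WT and 0.46 to 0.69 times in HRD1Alb liver, which overlap. Col6a1 was 3.66 to 5.08 times Col6a2 in WT and 2.91 to 4.17 times in HRD1Alb liver. The ratios of Col6a1, of Col5a1 to Col5a2 (1.58 to 2.35 in WT and 1.39 to 2.12 in HRD1Alb), of Col3a1 to Col1a1 (1.66 to 3.26 and 1.89 to 2.23) and of Col4a3 to Col4a4 (0.919 to 7.88 and 2.14 to 20.7) overlapped as well, and no ratio was tested.

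Summed over the 6 members, the basement-membrane class had 62.1 and 87.1 CPM in fasted WT, 154 and 130 CPM in fasted HRD1Alb, 66.9 and 71.8 CPM in refed WT and 205 and 100.1 CPM in refed HRD1Alb liver. All HRD1Alb libraries were above all WT libraries. Most of each sum came from Col4a1 and Col4a2, while Col4a3, Col4a4, Col4a5 and Col4a6 each overlapped between the genotypes. The fibrillar class had 102 to 136 CPM in the 4 WT and 114 to 199 CPM in the 4 HRD1Alb libraries, and it overlapped. The multiplexin sum, almost all Col18a1, was 1022 to 1264 CPM in WT and 588 to 923 CPM in HRD1Alb liver.

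**Figure D4:**
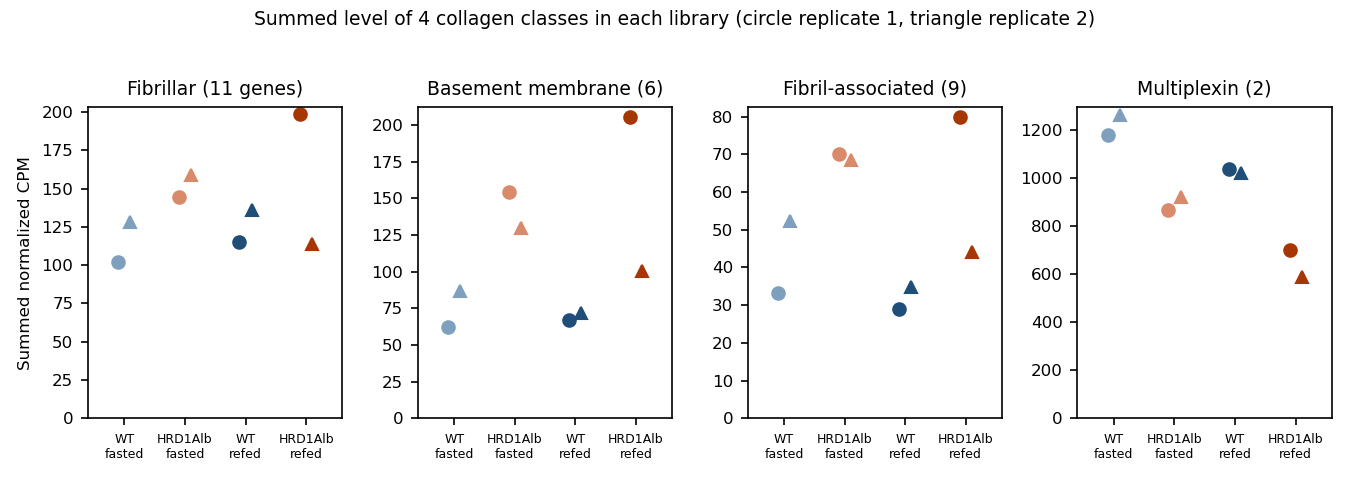
Summed normalized CPM (axis from 0) of the fibrillar, basement-membrane, fibril-associated and multiplexin classes in each library, with circles for replicate 1 and triangles for replicate 2. The basement-membrane sum, mostly Col4a1 and Col4a2, is 62.1 to 87.1 CPM in WT and 100.1 to 205 CPM in HRD1Alb libraries. The fibrillar sums of the genotypes overlap.

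Refeeding was compared within each genotype, and the number of collagen genes called in WT liver was near the background share. In WT liver only Col27a1 was called, 2.36-fold higher after refeeding (1.24 ± 0.22, adjusted p = 0.0382), where 2.59% of all genes were called, 1.2% higher and 1.39% lower. This call was lost without any 1 of the 6 libraries outside the refed HRD1Alb group. Col1a1 was lower in both refed than in both fasted WT libraries without passing the test (-1.56 ± 0.57, adjusted p = 0.230), and so had Col1a2 (-1.18 ± 0.45, adjusted p = 0.248). Col15a1 had 6.43 and 9.54 CPM fasted and 14.2 and 16.7 CPM refed (0.95 ± 0.23, adjusted p = 0.0892). Both refed WT libraries lay above both fasted ones for 5 members (30.8% of all genes) and below for 9 (29.5%). The median log2 fold change was -0.33 over the members and 0.002 over all genes. In WT liver 7 members, 2 higher and 5 lower, reached an unadjusted p below 0.05, as did 16.3% of all genes. DESeq2 called 3 members there (Col1a1, Col15a1 and Col27a1) and limma-trend 1. In HRD1Alb liver no member was called, where 10.4% of all genes were, 5.42% higher and 5.01% lower. Both refed HRD1Alb libraries lay above both fasted ones for 4 members (29.1% of all genes) and below for 6 (29.5%). An unadjusted p below 0.05 was reached by 3 members and by 31.6% of all genes, and DESeq2 called 2 (Col15a1 and Col18a1) and limma-trend 0. Col27a1, which rose in WT, had 9.15 and 10.6 CPM fasted and 9.34 and 6.78 CPM refed there (-0.29 ± 0.22, adjusted p = 0.388).

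The difference between the genotype effects in refed and fasted liver was tested as an interaction, and edgeR called none of the 14379 genes. This absence depended on the refed HRD1Alb pair, since genes were called without its replicate 1 or without its replicate 2, which leaves 1 library in that group. An unadjusted p below 0.05 was reached by 4 members (Col1a1, Col4a6, Col25a1 and Col27a1) and by 8.42% of all genes, with limma-trend calling 0 members and DESeq2 1, Col27a1. For Col27a1 the interaction was -1.53 ± 0.31 (adjusted p = 0.551), and -1.78 to -1.32 with each library left out. The larger number of calls in refed than in fasted liver is therefore not shown to be a difference in effect. The refed and fasted genotype comparisons share no libraries, but those of refeeding and genotype do.

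The machinery that folds and matures collagen was described from lists of the pathway. In each list the counts over both feeding states stand against 11.3% of all genes called higher and 7.76% called lower. Of 18 tested genes for hydroxylation and folding, 7 rose in HRD1Alb livers and none fell. Leprel4, a partner of the prolyl 3-hydroxylase complex, was 2.20 higher on the log2 scale (± 0.23, adjusted p = 0.00266), with 1.84 and 1.65 CPM in fasted WT against 9.99 and 6.32 CPM in fasted HRD1Alb and 0.568 and 0.683 against 2.45 and 3.22 CPM in refed liver. Fkbp10, a prolyl isomerase, was higher by 1.15, Crtap, the cartilage-associated protein, by 1.14 and Sparc, a collagen chaperone of the matrix, by 1.05, with adjusted p-values of 0.0387, 0.00953 and 0.0189. Serpinh1 (the collagen chaperone HSP47), P4hb and Ppib were the other 3. Serpinh1 had 10.8 and 10.4 CPM in refed WT and 36.7 and 26.9 CPM in refed HRD1Alb liver (1.59 ± 0.30, adjusted p = 0.0234), but 4.44 and 8.06 against 8.35 and 7.46 CPM in fasted liver, where the groups overlapped. The median log2 fold change of the list was 0.36.

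Of 11 tested genes for propeptide cleavage and crosslinking, 3 rose and 1 fell, with a median log2 fold change of 1.002. The 3 were Adamts14, a procollagen N-proteinase (1.91 ± 0.29, adjusted p = 0.00728), and the C-proteinase enhancers Pcolce2 (1.25 ± 0.32, adjusted p = 0.0341) and Pcolce (1.11 ± 0.25, adjusted p = 0.0245). Bmp1, the C-proteinase that they enhance, had 208 and 211 CPM in fasted WT against 133 and 158 CPM in fasted HRD1Alb and 175 and 190 against 77.4 and 108.04 CPM in refed liver (-0.75 ± 0.14, adjusted p = 0.0137). No lysyl oxidase passed the test. Among 12 genes of collagen degradation, 4 rose and none fell, with a median of 0.65. Mmp12, a macrophage elastase, had 0.124 to 0.146 CPM in the 4 WT and 4.07 to 14.2 CPM in the 4 HRD1Alb libraries (6.23 ± 0.50, adjusted p = 0.00157). Mmp13, a collagenase, was higher by 2.48 on the log2 scale and the collagen-degrading cathepsin Ctsk by 1.28, with adjusted p-values of 0.0116 and 0.0337. Timp1, an inhibitor of these proteases, was the other gene, at 0 to 0.146 CPM in the 4 WT libraries, under the level of 3 counts in 3 of them, and at 0.254 to 1.07 CPM in HRD1Alb liver (adjusted p = 0.00828).

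Of 8 tested collagen receptors only Lair1, an inhibitory receptor of leukocytes, rose (1.32 ± 0.23, adjusted p = 0.0110), a share of 12.5% that is near the background. Of 17 fibrogenic ligands, receptors and Smads, Ctgf (1.55 ± 0.29, adjusted p = 0.0140) and Tgfb1 (0.99 ± 0.16, adjusted p = 0.00847) rose and none fell, a share of 11.8% that is likewise near the background. Ctgf, the connective tissue growth factor, had 5.38 and 7.18 CPM in fasted WT against 15.8 and 18.5 CPM in fasted HRD1Alb liver, and 1.83 and 2.71 against 9.9995 and 4.28 CPM in refed liver.

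The pathway counts over both feeding states also moved with single libraries. The folding count of 7 was lower on leaving out any 1 of the fasted HRD1Alb or refed WT libraries, or WT fasted replicate 1. It was higher on leaving out replicate 1 or replicate 2 of refed HRD1Alb. The share of all genes called fell and rose in the same fits, as given above for the collagen genes. The counts of 4 for cleavage and crosslinking, 4 for degradation, 1 for receptors and 2 for fibrogenic genes moved as well. The highest value in each list came without WT fasted replicate 2 or without a refed HRD1Alb library. The lowest values came without HRD1Alb fasted replicate 1 or 1 of the libraries of WT liver.

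Markers of several cell types were called over both feeding states, where 11.3% of all genes were higher and 7.76% lower. Of 14 stellate-cell markers, 9 were higher in HRD1Alb livers and none lower. In fasted liver alone none of the stellate, portal-fibroblast or myofibroblast markers was called, where 1.34% of all genes were. All 14 stellate and all 6 myofibroblast markers had positive fasted log2 fold changes there, as did 4 of the 7 portal-fibroblast markers. For 12 stellate markers both fasted HRD1Alb libraries lay above both WT libraries (30.7% of all genes), and for 0 below (34.2%). Of the 6 Kupffer-cell markers 1 was called in fasted liver. The summed level of the stellate markers was 323 to 571 CPM in fasted and 285 to 344 CPM in refed WT. In fasted and refed HRD1Alb liver it was 689 to 710 and 595 to 634 CPM. No stellate marker was at 0 in any library. Of 6 myofibroblast markers, 1 of which (Des) is also on the stellate list, 5 were higher, with sums of 16.6 to 36.2 CPM in the 4 WT and 49.6 to 56.5 CPM in the 4 HRD1Alb libraries. Of 7 portal-fibroblast markers 2 were higher, at 9.31 to 19.6 against 20.7 to 25.2 CPM. All 6 Kupffer-cell markers were higher, at 73.7 to 88.0 against 181 to 411 CPM. Of 3 tested smooth-muscle markers 1 was higher, and none of 10 sinusoidal endothelial, 7 cholangiocyte or 5 mesothelial markers was called. The endothelial sum was 167 to 208 CPM in WT and 179 to 217 CPM in HRD1Alb liver, and the cholangiocyte sum 56.3 to 102 against 43.9 to 72.1 CPM. Among 8 hepatocyte markers Pck1 was lower, and their sum was 109805 to 152117 CPM in WT and 67120 to 104733 CPM in HRD1Alb liver. The marker counts were not repeated with a library left out, and the part of these cell types in the collagen results was not tested.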

How the data were processed

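Liver RNA of 8 libraries was analysed, 2 in each of 4 groups set by the labels. The authors isolated total RNA with TRIzol and sequenced each sample on 1 lane of a NextSeq instrument. The deposited values are raw counts per gene symbol, 1 table per sample. The study names ERANGE as the counter, and the submitters' processing notes list cutadapt, STAR, HTSeq, DESeq2 and mm10 without versions or roles. Strand setting and annotation are not given in the sources used here. Members, lists and tests were chosen with earlier results of these data known, so none is independent of them.

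Genes with 10 or more counts in at least 2 libraries (14379) were tested in R 4.3.3 with edgeR 4.0.16 (TMM, factors 0.837 to 1.22, glmQLFit with 4 group means and all 8 libraries, common dispersion 0.0573). Adjusted p-values are Benjamini-Hochberg over all tested genes of a comparison, and calls are below 0.05. Each SE was taken as the size of the log2 fold change over the root of its F statistic. An exact permutation test of 2 against 2 libraries cannot go below p = 0.333, so calls rest on the spread shared across genes. Exon lengths came from GENCODE M21 for 14188 tested genes (98.7%). The stellate, other cell-type and pathway lists were scored the same way. Named in full were collagens I, III and IV (Col1a1, Col1a2, Col3a1, Col4a1, Col4a2), every member called in any comparison and the 10 highest per kb, and from each pathway list up to 4 called genes with the largest change. Names beyond that rule, such as Serpinh1 and Col15a1, were added after their values were seen. The alternatives were RLE scaling, DESeq2 1.42.0, limma-trend (limma 3.58.1), 3 filters, only the libraries of a comparison, the replicate number as a block, a smooth length correction, both together, and each library left out. Scripts were tested on simulated data. Figures used matplotlib 3.10.9.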

Additional observations from a re-analysis of the deposited data

Results flagged for a closer look

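Col4a6, a chain of basement membranes found chiefly around smooth muscle and epithelium, moved in opposite directions with the genotype. Both fasted HRD1Alb libraries lay below both WT libraries (log2 fold change -1.05), which 34.2% of all genes did. Both refed ones lay above (1.42), which 30.7% of all genes did, and counts were 1 to 17 per library. Col4a6 is the gene next to Col4a5 on the X chromosome and was tested at the lowest depth of its class. The difference itself did not pass the interaction test (adjusted p = 0.584).

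Col5a3 was higher in both refed than in both fasted WT libraries (0.54), at 36.8 and 44.0 against 35.5 and 20.1 CPM. It was lower in both refed than in both fasted HRD1Alb libraries (-0.41), at 22.6 and 19.3 against 23.0 and 32.5 CPM. Among all genes, 30.8% were separated that way in WT and 29.5% in HRD1Alb liver. The interaction of Col5a3 did not pass the test (adjusted p = 0.596).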

How the results depend on the processing

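The 2 libraries per group and the length bias of the library labelled HRD1Alb refed replicate 2 limit these counts of called genes. RLE scaling, filterByExpr and 10 counts in every library left all 6 counts as reported, and limma-trend gave 6 in refed liver, without Col4a2. Without a filter the fasted count was 1. DESeq2 called 4 fasted, 13 refed, 17 in the mean, 3 and 2 for refeeding in WT and HRD1Alb, and 1 for the interaction, beside 7.59%, 22.0%, 25.9%, 7.47%, 20.3% and 0.661% of all genes. Only the libraries of a comparison gave 3 fasted, 0 refed and 2 for WT refeeding, beside 14.6%, 0% and 13.9% of all genes. The length correction gave 3, 14, 17 and, for HRD1Alb refeeding, 1, beside 6.31%, 20.03%, 28.8% and 15.8%. Correlations of the replicate differences between groups were low (r from -0.005 to 0.22), which cannot settle whether the replicate numbers pair the samples. The replicate block gave 0 fasted, 5 refed and 9 in the mean, beside 0.828%, 9.63% and 18.2% of all genes. With that block Col4a2 and Col18a1 were lost in refed liver and Col4a1 in the mean. Block and length correction together gave 2, 15 and 17, then 2 and 1 for WT and HRD1Alb refeeding, beside 5.17%, 19.2%, 28.3%, 5.58% and 15.2%. Without WT fasted replicate 2 and HRD1Alb refed replicate 2, added after seeing the data, the counts were 14 fasted, 20 refed, 20 in the mean, 2 and 6 for refeeding in WT and HRD1Alb, and 1 for the interaction, beside 16.8%, 30.99%, 40.5%, 14.6%, 25.9% and 0.877%. Leaving out each library in turn, which leaves 1 library in a group, moved all 6 counts and the shares of all genes called. In fasted liver, for refeeding in either genotype and for the interaction, both were highest without a refed HRD1Alb library.

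The 17 values past the threshold kept their sign in 314 of 314 alternatives and their call in 225. Only values that did not pass the test changed sign. Col5a3 in fasted liver, at 0.00, was 0.035 with limma-trend, 0.027 with 10 counts in every library, 0.037 with the fasted libraries only, 0.014 with the block and -0.32 to 0.47 with a library left out. HRD1Alb refeeding values with the length correction, without and with the block, were 0.38 and 0.38 for Col12a1, 0.071 and 0.088 for Col14a1, and 0.14 and 0.14 for Col27a1. Without both libraries, Col12a1 was 0.08 and Col14a1 0.17, and Col1a2 was -0.021 with limma-trend. With a library left out they ranged from -0.50 to 0.10 (Col12a1), -0.83 to 0.19 (Col14a1), -0.27 to 0.87 (Col1a1), -0.40 to 0.37 (Col1a2), -0.11 to 0.80 (Col3a1), -0.42 to 0.59 (Col4a1) and -0.44 to 0.55 (Col4a2). WT refeeding values ranged from -0.079 to 0.48 (Col12a1) and -0.55 to 0.046 (Col4a1), and were -0.078 and 0.047 without both libraries. The interaction with the length correction, without and with the block, was 0.17 and 0.17 for Col12a1, 0.13 and 0.12 for Col18a1 and 0.19 and 0.19 for Col4a2, and without both libraries 0.16 for Col12a1 and 0.11 for Col4a2. With a library left out it ranged from -0.23 to 0.79 (Col14a1), -0.13 to 0.88 (Col4a1), -0.65 to 0.34 (Col4a2) and -0.035 to 1.09 (Col6a1). The cause of these changes was not tested.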
